A study of Mus musculus with 12 samples.

Results

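The genes described here are 33 mouse genes of glucose uptake, glycolysis, the pentose phosphate pathway and glycogen metabolism. They were chosen by name: 5 of glucose transport and hexokinases, 7 of upper glycolysis, 3 PFKFB regulators, 6 of lower glycolysis, 4 of the oxidative and 4 of the non-oxidative pentose phosphate pathway, and 4 of glycogen. All 33 were found among the 37310 genes of the count table, and all 33 were among the 12917 genes that passed the filter on low counts. The counts came from bulk RNA-seq of neutrophils sorted from the bone marrow of C57BL/6 mice (CD11b+, Ly6G+, Siglec F-, F4/80-). The 12 libraries formed 4 groups of 3: Control with vehicle, Control with LPS, Runx1 knockout (Runx1KO) with vehicle and Runx1KO with LPS. LPS, a lipopolysaccharide of bacterial cell walls that activates neutrophils through Toll-like receptor signalling, was given at 100 ng/mL, and each incubation lasted 2 h. The study asked how Runx1, a transcription factor of blood cells, bears on the response of neutrophils to such signals. Its design text describes the Control material as pooled marrow of a Runx1f/f mouse and of a Runx1f/- mouse, the latter with a germline mutation of 1 copy of Runx1. It calls these cells LKS-, whereas the label of every Control library gives the neutrophil sort above. The sources used here do not give the Cre line, the allele left in the knockout, the age of the mice or any pooling of knockout mice. The labels do not state separate mice for libraries of a group, so a p-value speaks for the spread among these libraries. Xist, expressed from the inactive X of female cells, was at 0 CPM (counts relative to the library total) in the library numbered 2 of each group and 42.4 to 65.7 CPM in the other 8, so the libraries numbered 2 did not come from the same mice as the rest.

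Neutrophils are known to draw most of their ATP from glycolysis. Glucose enters through facilitative transporters, is trapped by hexokinases, and is split into triose phosphates that are turned into pyruvate and then lactate. The oxidative pentose phosphate pathway makes NADPH, which feeds the oxidative burst, and its non-oxidative branch returns pentose phosphates to glycolysis. Glycogen, which neutrophils can store, supplies hexose phosphate when glucose is short. LPS is known to raise glucose uptake in myeloid cells. Transcript levels do not measure enzyme activity or flux.

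Promoter windows are given for the 4 members whose transcripts differed most between genotypes, Rpe, H6pd, Gys1 and Pgam1, and for the transporter Slc2a1, because Runx1 is a DNA-binding factor. Each window is the 250 bases before the RefSeq transcript start (GRCm38.p6), on the strand of the gene and 5′ to 3′. The positions are chr1:66700581-66700830 (plus strand) for Rpe, chr4:150003237-150003486 (minus strand) for H6pd and chr7:45434589-45434838 (plus strand) for Gys1. The windows of Pgam1 and Slc2a1 are chr19:41911621-41911870 and chr4:119108495-119108744, both on the plus strand. Capitals mark the RUNX core motifs TGTGGT and TGCGGT and the HIF core ACGTG, searched on both strands.
Rpe: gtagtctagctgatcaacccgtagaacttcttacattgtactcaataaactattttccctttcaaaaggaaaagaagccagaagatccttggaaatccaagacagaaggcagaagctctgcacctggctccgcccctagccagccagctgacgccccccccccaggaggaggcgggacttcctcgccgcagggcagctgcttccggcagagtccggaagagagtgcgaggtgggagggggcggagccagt
H6pd: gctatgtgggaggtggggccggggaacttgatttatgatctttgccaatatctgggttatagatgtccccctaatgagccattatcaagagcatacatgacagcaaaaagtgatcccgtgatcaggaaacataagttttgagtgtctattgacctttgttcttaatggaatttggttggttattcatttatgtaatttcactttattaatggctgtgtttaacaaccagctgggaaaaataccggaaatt
Gys1: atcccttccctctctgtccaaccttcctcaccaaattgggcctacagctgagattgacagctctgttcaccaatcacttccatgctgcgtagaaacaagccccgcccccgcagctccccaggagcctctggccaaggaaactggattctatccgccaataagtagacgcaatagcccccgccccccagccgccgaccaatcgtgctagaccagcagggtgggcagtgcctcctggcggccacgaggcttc
Pgam1: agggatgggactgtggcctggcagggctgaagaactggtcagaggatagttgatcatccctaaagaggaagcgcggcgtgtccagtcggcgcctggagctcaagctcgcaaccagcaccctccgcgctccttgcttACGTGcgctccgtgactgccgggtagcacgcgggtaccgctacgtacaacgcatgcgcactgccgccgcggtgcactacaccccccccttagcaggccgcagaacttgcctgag
Slc2a1: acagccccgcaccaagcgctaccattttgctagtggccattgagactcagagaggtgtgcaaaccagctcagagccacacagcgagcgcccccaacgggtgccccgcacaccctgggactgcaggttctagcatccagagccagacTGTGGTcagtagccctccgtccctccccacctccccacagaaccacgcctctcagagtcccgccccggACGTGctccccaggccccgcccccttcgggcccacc
A RUNX motif was present in the Slc2a1 window and in none of the windows of Rpe, H6pd, Gys1 and Pgam1. RefSeq windows matched 32 of the 33 members, with 47 windows in all, since some genes have several starts. A RUNX motif of either form was in 14.9% of the members' windows and in 18.6% of all 32851 windows. ACGTG, which also lies within the E-box CACGTG, was in 34% of the members' windows, those of 12 genes including Pgam1 and Slc2a1, and in 16.6% of all windows. CACGTG itself was in 6.38% and 6.02%. A match describes these letters only.

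Total counts ranged from 19023610 to 26225169 per library. CPM below means counts of a gene relative to the total of its library, brought to 1 common total after the library sizes were scaled by TMM, edgeR's trimmed mean of M values. The TMM factor was lowest, 0.700, in Runx1KO LPS library 3, and the members' share of all counts was also lowest there, at 0.480%, against 1.28% in Runx1KO vehicle library 3. Among the markers of 11 cell type lists, Adgre1, which encodes the F4/80 antigen the sort excluded, was 1220 CPM in Runx1KO LPS library 3 and 15.5 to 318 CPM in the other 11. The summed neutrophil markers stood between 136000 and 218000 CPM in every library, and those of monocytes and macrophages between 727 and 2960 CPM. With vehicle the neutrophil sum was 136000 to 176600 CPM in Runx1KO and 180700 to 196400 CPM in Control, and with LPS the genotypes overlapped. Ngp of that list was 17530 to 29250 CPM in Runx1KO and 35280 to 42370 CPM in Control. Retnlg overlapped and leaned the other way, 14090 to 27360 CPM against 11370 to 16770 CPM. Ly6c2 of the monocyte list was 519 to 969 CPM in Runx1KO and 1253 to 1481 CPM in Control. The rest of that list overlapped between the genotypes, and Csf1r, Ccr2 and Adgre1 leaned the other way. Csf1r was 117 to 741 CPM in Runx1KO and 59.9 to 345 CPM in Control. Ccr2 was 1.68 to 10.2 CPM in Runx1KO and 0.42 to 4.70 CPM in Control. Several markers of other cell types differed by genotype. Of the 7 T and NK cell markers, Cd3d was 32.4 to 47.5 CPM in Control and 1.35 to 3.06 CPM in Runx1KO, while the other 6 overlapped. The 7 B lineage markers summed to 18.5 to 50.9 CPM in Control and 7.94 to 17.7 CPM in Runx1KO. Among them Cd79a, Pax5 and Vpreb1 overlapped between the genotypes. Vpreb1 leaned the other way, with 0.443 to 1.97 CPM in Runx1KO against 0.36 to 1.13 CPM in Control. The basophil genes Mcpt8, Prss34 and Fcer1a were at 0 in all 6 Runx1KO libraries. The 6 markers of that list summed to 3.54 to 25.7 CPM in Control and 1.197 to 2.923 CPM in Runx1KO. Cpa3, Ms4a2 and Gata2 of that list overlapped between the genotypes. Gata2 leaned the other way, with 0.9309 to 2.586 CPM in Runx1KO against 0.1518 to 2.157 CPM in Control. The megakaryocyte genes Itga2b and Pf4 were 0.401 to 1.51 and 0.0799 to 2.66 CPM in Control, against 8.07 to 11.1 and 7.54 to 17.2 CPM in Runx1KO. Itgb3 of the same list went the other way, from 25.4 to 33.5 CPM in Control to 11.1 to 20.5 CPM in Runx1KO. Ly6g was 381 to 471 CPM in Control and 106 to 158 CPM in 5 of the 6 Runx1KO libraries. It was 351 CPM in Runx1KO LPS library 1, above the other 5 and below all 6 Control libraries. By Ldha (196 CPM), Itga2b (8.26 CPM) and Cd3d (1.71 CPM) that library lay within the range of the other Runx1KO libraries and apart from Control. Its Pf4, 7.54 CPM, was the lowest of the Runx1KO libraries and above the 2.66 CPM that Control reached. Tnf, a cytokine gene induced by LPS, was 28.2 and 73.0 CPM in the vehicle libraries numbered 3 and 594 to 1419 CPM in the vehicle libraries numbered 1 and 2. After LPS it was 489 CPM in Runx1KO library 1 and 1264 to 8859 CPM in the other 5 LPS libraries. The part of these libraries and cells in the results was not tested, and values without Runx1KO LPS libraries 1 and 3 are given where results rest on them.

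Divided by exon length, so that genes can be compared, the highest median level belonged to Taldo1, a transaldolase of the non-oxidative pentose phosphate pathway. These levels rest on the row of each gene alone and leave out counts on near-identical copies, which for Gapdh, Pgk1 and Eno1 came to 833%, 252% and 186% of their own, so the ranks of those genes are uncertain. Taldo1 was at 765 CPM per kb of exon over the 12 libraries, with a range of 598 to 878. The pyruvate kinase gene Pkm followed at 385, the aldolase gene Aldoa at 321, the glycogen phosphorylase gene Pygl at 270 and Pgd, whose enzyme makes NADPH, at 266 CPM per kb. Their ranges overlapped, so the order of these neighbours does not hold beyond the spread: Pkm spanned 265 to 486, Aldoa 263 to 399, Pygl 190 to 461 and Pgd 129 to 410 CPM per kb. At the other end, Eno3, Pfkfb2, Rpia, Pfkm and Aldoc had medians of 0.917, 0.691, 0.575, 0.261 and 0.227 CPM per kb. Rpia, the ribose phosphate isomerase, thus lay far below its pathway neighbours Rpe at 15.3 and Tkt at 158 CPM per kb.

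Most enzyme families were carried by 1 gene. Aldoa made up 99.89 to 99.98% of the aldolase transcripts per length, and Eno1 made up 99.1 to 99.7% of Eno1 and Eno3 together. The enolase share leaves out the near-identical copies of Eno1, of which Eno1b stood at 313 to 698 CPM. Among hexokinases, Hk3 held a median of 89.0% (range 83.4 to 92.2%), with Hk1 at 6.06% and Hk2 at 3.98%. Phosphofructokinase was shared: Pfkp, the platelet form, held 67.9% (57.8 to 73.8%), Pfkl, the liver form, 31.4% (25.8 to 39.6%) and Pfkm, the muscle form, 1.16%. Of the 2 glucose transporters among the members, the high-affinity form encoded by Slc2a3 held a median of 90.1%. Slc2a1 took the rest, from 3.24% in Runx1KO vehicle library 3 to 29.3% in Runx1KO LPS library 3. These shares leave out transporters outside the members, of which Slc2a6 stood at 33.5 to 967 CPM, against 22.0 to 117 CPM for Slc2a1. Among the bifunctional PFKFB enzymes, which set the level of the allosteric activator of phosphofructokinase, Pfkfb4 held 71.98% (47.4 to 90.5%) and Pfkfb3 27.2% (8.89 to 52.0%).

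**Figure D1:**
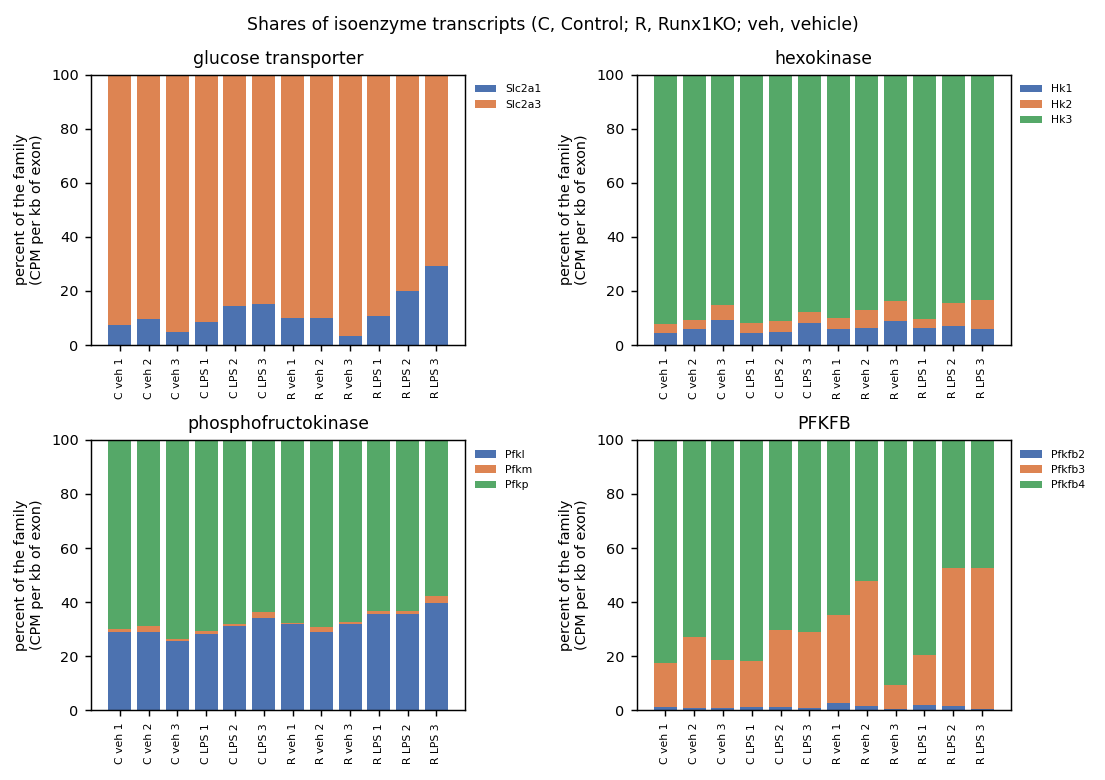
Stacked bars give, for each of the 12 libraries, the percent of a family's transcripts (CPM per kb of exon) that each gene held. The families are the members among glucose transporters, hexokinases, phosphofructokinases and PFKFB enzymes. Slc2a3, Hk3 and Pfkp were the major forms in every library, while the share of Pfkfb3 ranged from 8.89 to 52.0%.

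The first question was how the knockout cells differed from Control. The transcripts that differed most were those of Rpe and H6pd in the pentose phosphate pathway, the glycogen synthase gene Gys1 and Pgam1 of lower glycolysis. 0 of 33 members passed edgeR's quasi-likelihood test over all genes (Benjamini-Hochberg adjusted p under 0.05) with vehicle, where 0.952% of all genes passed, and 0 of 33 with LPS, where 0.921% did. At an unadjusted p under 0.05, 3 members were lower and 0 higher with vehicle (4.65% of all genes lower, 3.14% higher). With LPS these were 4 and 0 (4.79% of all genes lower, 5.36% higher). DESeq2 called 1 member with vehicle, Rpe (2.99% of all genes), and 0 with LPS (3.1%), and limma-voom called 0 in both (0.952% and 0.813%).

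Libraries of the same number deviated together across the genotypes, and a fit with the library number as a block was therefore set beside the main one. The block takes the effect of a number as shared by all 4 groups, although the Runx1KO treatments were not taken as paired. This block fit called Rpe with vehicle and H6pd with LPS, against 2.44% and 2.34% of all genes called in that fit.

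Of the 33 members, 25 had a log2 fold change below 0 with vehicle (75.8%, against 49.7% of all genes), and their median was −0.21 against 0.0025 for all genes tested. Without Control vehicle library 2 this median was −0.11. With LPS, 20 of 33 were below 0 (all genes 47.4%), with a median of −0.095 against 0.031. The LPS median rested on single libraries: without Runx1KO LPS library 1 it was −0.42, without Runx1KO LPS library 3 it was 0.012, and without Control LPS library 1 it was −0.062. Within library numbers 1, 2 and 3 the median difference was −0.14, −0.35 and −0.088 with vehicle and 0.072, −0.19 and −0.34 with LPS. Every Runx1KO library was lower than every Control library for 4 of 33 members with vehicle (12.1%, against 7.82% of all genes), which were Rpe, Gys1, Slc2a3 and Gapdh. Eno3 was the 1 member with all Runx1KO libraries higher (all genes 5.42%). With LPS the 4 lower members were H6pd, Pgam1, Gpi1 and Eno1 (all genes 6.76%), and Pfkl was higher (all genes 6.51%). Gapdh, Eno3, Gpi1 and Pfkl are named here after their values were seen.

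**Figure D2:**
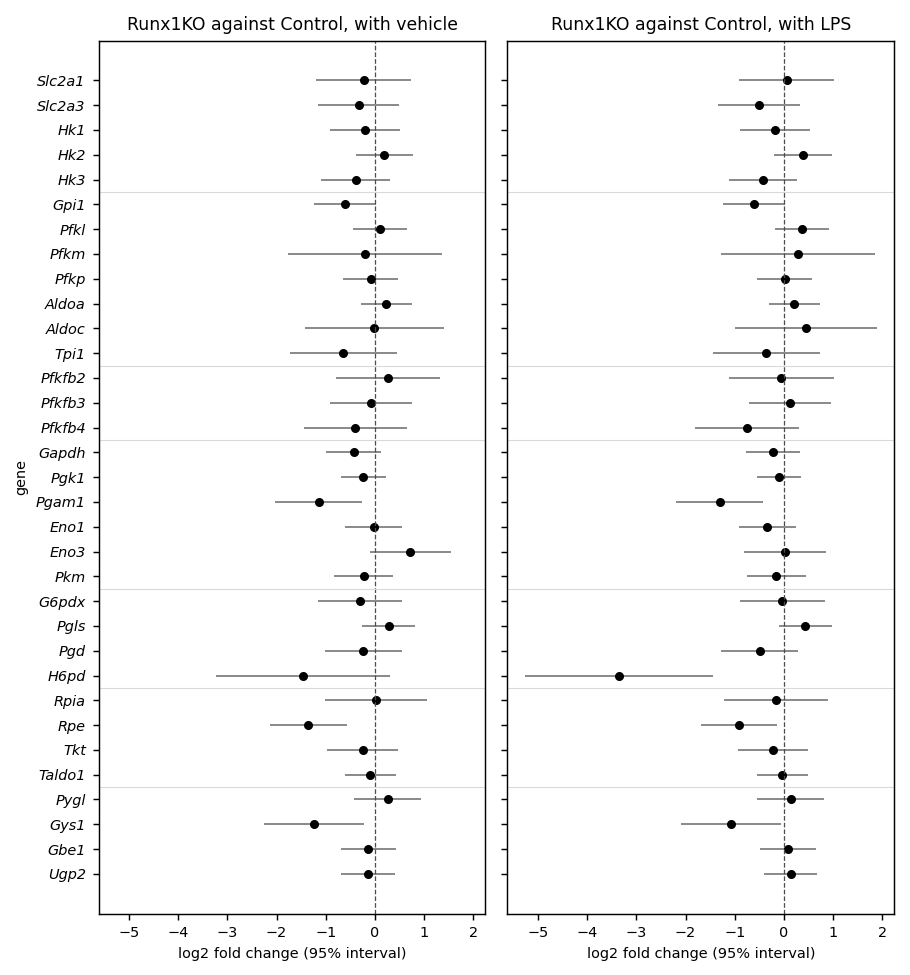
Points are log2 fold changes of Runx1KO against Control for the 33 members, with vehicle (left) and with LPS (right), and bars are 95% intervals of the edgeR fit before adjustment. The intervals of Rpe, Gys1 and Pgam1 lie below 0 in both panels, and that of H6pd lies below 0 with LPS only.

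Rpe encodes ribulose phosphate epimerase, the enzyme that links the oxidative to the non-oxidative branch of the pentose phosphate pathway. Its level was 69.7, 63.0 and 63.8 CPM in Control vehicle libraries 1, 2 and 3, and 30.3, 26.6 and 19.8 CPM in those of Runx1KO. LPS libraries 1, 2 and 3 stood at 62.6, 58.0 and 40.1 CPM for Control, against 43.0, 28.1 and 13.9 CPM for Runx1KO. The genotypes did not overlap with vehicle, and with LPS Runx1KO library 1 reached above Control library 3. The log2 fold change was −1.36 with vehicle (SE 0.36, 2.56-fold lower, edgeR adjusted p = 0.134) and −0.92 with LPS (SE 0.36, adjusted p = 0.388). With the library number as a block it was −1.40 with vehicle (SE 0.25, adjusted p = 0.0207) and −0.99 with LPS (adjusted p = 0.0807). Rpe was lower in Runx1KO within all 3 library numbers under both treatments. With vehicle it also passed in DESeq2 (log2 fold change −1.33, adjusted p = 0.0208) and without Runx1KO LPS library 3 (−1.35, adjusted p = 0.0412). With LPS, leaving that library out gave −0.59. Rpe shares 558 exon bases with Kansl1l on the opposite strand, and the sources used here do not give the strand setting of the counting. The log2 fold change of Kansl1l was −0.68 with vehicle and −0.16 with LPS, neither of which passed the test.

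H6pd encodes hexose phosphate dehydrogenase, which makes NADPH inside the endoplasmic reticulum. Its level was 14.1, 15.3 and 35.0 CPM in Control vehicle libraries and 13.6, 15.1 and 48.9 CPM in Control LPS libraries. Runx1KO libraries held 3.16, 1.60 and 18.5 CPM when given vehicle, and 3.08, 1.39 and 3.15 CPM when given LPS. Library 3 was the highest in all 4 groups, and the genotypes overlapped with vehicle only, where Runx1KO library 3 exceeded Control libraries 1 and 2. The log2 fold change was −3.35 with LPS (SE 0.88, 10.2-fold lower, adjusted p = 0.130) and −1.46 with vehicle (SE 0.81, adjusted p = 0.822). The block gave −3.09 with LPS (SE 0.50, adjusted p = 0.0133) and −1.95 with vehicle (adjusted p = 0.0700). Within library numbers 1, 2 and 3 the difference was −2.13, −3.19 and −0.91 with vehicle and −2.11, −3.36 and −3.92 with LPS, below 0 in every case. Without Runx1KO vehicle library 3 the vehicle value was −3.17 (adjusted p = 0.110) and the LPS comparison passed the test (−3.35, adjusted p = 0.0326). With LPS it also passed when genes of low counts were kept (−3.38, adjusted p = 0.0317).

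G6pdx, whose enzyme starts the oxidative branch and which lies on the X chromosome, and Pgd, of the next NADPH-making step, were named after their values were seen. G6pdx was 375.5, 367 and 317 CPM in Control vehicle libraries and 313, 203 and 341 CPM in Runx1KO vehicle libraries. Among LPS libraries, Control had 407, 323 and 333 CPM while Runx1KO had 614, 202 and 221 CPM. Runx1KO library 1 was the highest of all after LPS while its group mates were the lowest, and the log2 fold changes were −0.31 (SE 0.40) and −0.034 (SE 0.40). For Pgd the genotype values were −0.24 with vehicle and −0.50 with LPS (SE 0.36 in both), and none of these 4 values passed the test. Tkt and Taldo1, which shuttle carbon units in the non-oxidative branch, overlapped between the genotypes under both treatments.

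Gys1 encodes the glycogen synthase of tissues other than liver. It was 56.2, 43.1 and 39.8 CPM in Control vehicle libraries and 29.5, 15.96 and 13.5 CPM in those of Runx1KO. In LPS-treated cells 49.96, 35.9 and 45.0 CPM were counted for Control and 38.7, 12.8 and 10.5 CPM for Runx1KO. The genotypes did not overlap with vehicle, and with LPS they did through Runx1KO library 1, the library with the highest Ly6g of the knockout. The log2 fold change was −1.24 with vehicle (SE 0.46, adjusted p = 0.404) and −1.08 with LPS (SE 0.46, adjusted p = 0.447), and neither passed the test. With the library number as a block the adjusted p was 0.0513 and 0.0608. Without Runx1KO LPS library 1 the LPS value was −1.91 and passed the test (adjusted p = 0.0331), and without library 3 it was −0.76 (adjusted p = 0.747). Gys1 shares 310 exon bases with Ruvbl2 on the opposite strand, whose log2 fold changes were −0.27 and −0.15. The other glycogen members, Pygl, which releases glucose units, Gbe1, which makes branch points, and Ugp2, which makes the activated sugar, overlapped between genotypes under both treatments.

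Pgam1 encodes phosphoglycerate mutase of lower glycolysis. It was 153, 209 and 285 CPM in Control vehicle libraries and 52.5, 87.1 and 154 CPM in those of Runx1KO. LPS libraries 1, 2 and 3 stood at 145, 161 and 156 CPM for Control, against 78.3, 72.1 and 37.1 CPM for Runx1KO. The genotypes did not overlap with LPS, and with vehicle Runx1KO library 3 lay just above Control library 1. The log2 fold change was −1.14 with vehicle (SE 0.41, adjusted p = 0.359) and −1.30 with LPS (SE 0.41, adjusted p = 0.234), below 0 within all 3 library numbers in both. No setting tried brought Pgam1 past the threshold. A copy of identical sequence over 765 bases, Pgam1-ps2, held counts equal to 60.7% of those of Pgam1, and its log2 fold changes were −1.02 and −1.21. With the copy's counts added, Pgam1 had values of −1.10 and −1.27.

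**Figure D3:**
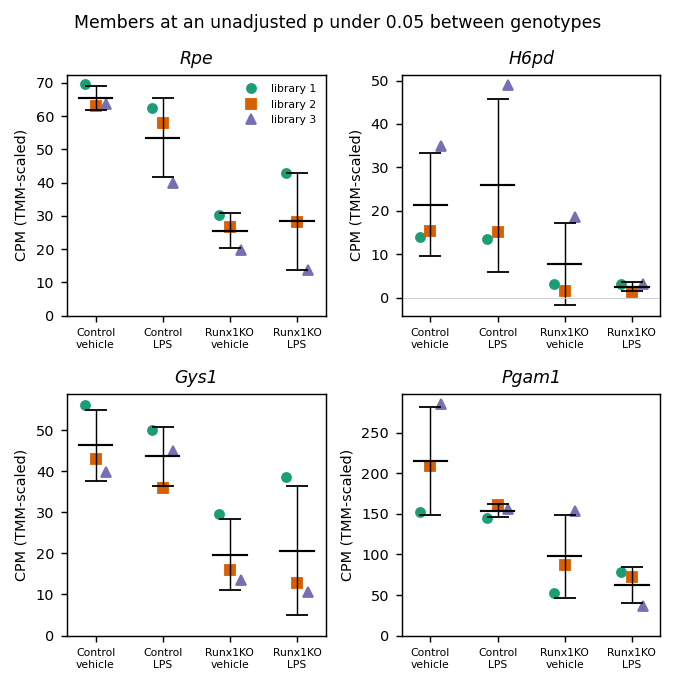
Each point is the CPM (TMM-scaled) of 1 library for Rpe, H6pd, Gys1 and Pgam1, by group, with marker shape and colour for the library number, and bars are the mean and SD of 3 libraries. Rpe and Gys1 are separated by genotype with vehicle, and H6pd and Pgam1 with LPS.

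Other glycolytic members differed less. Gpi1, the hexose phosphate isomerase, was 771, 870 and 493 CPM in Control vehicle libraries and 533, 466 and 398 CPM in those of Runx1KO. Among LPS libraries, Control had 794, 769 and 621 CPM while Runx1KO had 604, 463 and 367 CPM. Its groups were separated with LPS and overlapped with vehicle, with a log2 fold change of −0.61 in both (SE 0.29, adjusted p = 0.512 and 0.670). A near-identical copy, Gm1840, held counts equal to 42% of those of Gpi1 and had values of −0.60 and −0.61. Tpi1, the triose phosphate isomerase, was 99.6, 68.2 and 43.8 CPM in Control vehicle libraries and 56.3, 40.9 and 37.6 CPM in those of Runx1KO. In LPS-treated cells 99.7, 58.3 and 42.1 CPM were counted for Control and 92.2, 42.4 and 21.4 CPM for Runx1KO. In every group library 1 was the highest and library 3 the lowest, and the genotype differences of −0.65 (SE 0.50) and −0.36 (SE 0.50) were of about the size of their errors. Eno1, the main enolase, was 560, 634 and 601 CPM in Control vehicle libraries and 444, 502 and 810.3 CPM in those of Runx1KO. LPS libraries 1, 2 and 3 stood at 578, 529 and 522 CPM for Control, against 482, 442 and 366 CPM for Runx1KO. These LPS groups were separated, by a log2 fold change of −0.34 (SE 0.27, adjusted p = 0.778), while with vehicle the value was −0.031.

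Reads of several lower glycolytic genes can fall on near-identical copies elsewhere in the genome, so their counts are uncertain. For Gapdh, 38 copies had counts, which summed to 833% of its own. For Pgk1 the copies summed to 252% and for Eno1, including Eno1b, to 186% of the gene's counts. With the counts of the copies added, a step chosen after seeing the data in which a read may be counted more than once, 0 members passed the test in any of the 5 comparisons. Pkm and Pgk1, of the ATP-making steps, had overlapping genotypes under both treatments.

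Uptake and regulation were also compared. Slc2a3 was 1010, 1136 and 1039 CPM in Control vehicle libraries and 864, 848 and 819 CPM in those of Runx1KO, so the groups did not overlap. Among LPS libraries, Control had 986, 849 and 576 CPM while Runx1KO had 858, 588 and 248 CPM, where library 3 was the lowest of the 12. The genotype log2 fold changes were −0.33 (SE 0.38) and −0.51 (SE 0.38), with adjusted p = 1.00 and 0.750. Pfkfb4 was 190, 184 and 222 CPM in Control vehicle libraries and 92.8, 78.3 and 281 CPM in those of Runx1KO. In LPS-treated cells 182, 153 and 165 CPM were counted for Control and 166, 65.7 and 64.3 CPM for Runx1KO. In each treatment 2 Runx1KO libraries were well below Control and 1 was not, library 3 with vehicle and library 1 with LPS, and the values of −0.40 (SE 0.48) and −0.76 (SE 0.49) did not pass the test.

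The other 24 members had genotype log2 fold changes from −0.61 (Gpi1, SE 0.29) to 0.72 (Eno3, SE 0.38) with vehicle and from −0.61 (Gpi1, SE 0.29) to 0.45 (Aldoc, SE 0.66) with LPS. Of these 24, 16 were below 0 with vehicle and 12 with LPS, and 22 overlapped between the genotypes in each. The hexokinase genes Hk1, Hk2 and Hk3, the phosphofructokinase genes Pfkp and Pfkm, both aldolase genes, Pfkfb2, the lactonase gene Pgls and Rpia were among those that overlapped under both treatments.

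**Figure D4:**
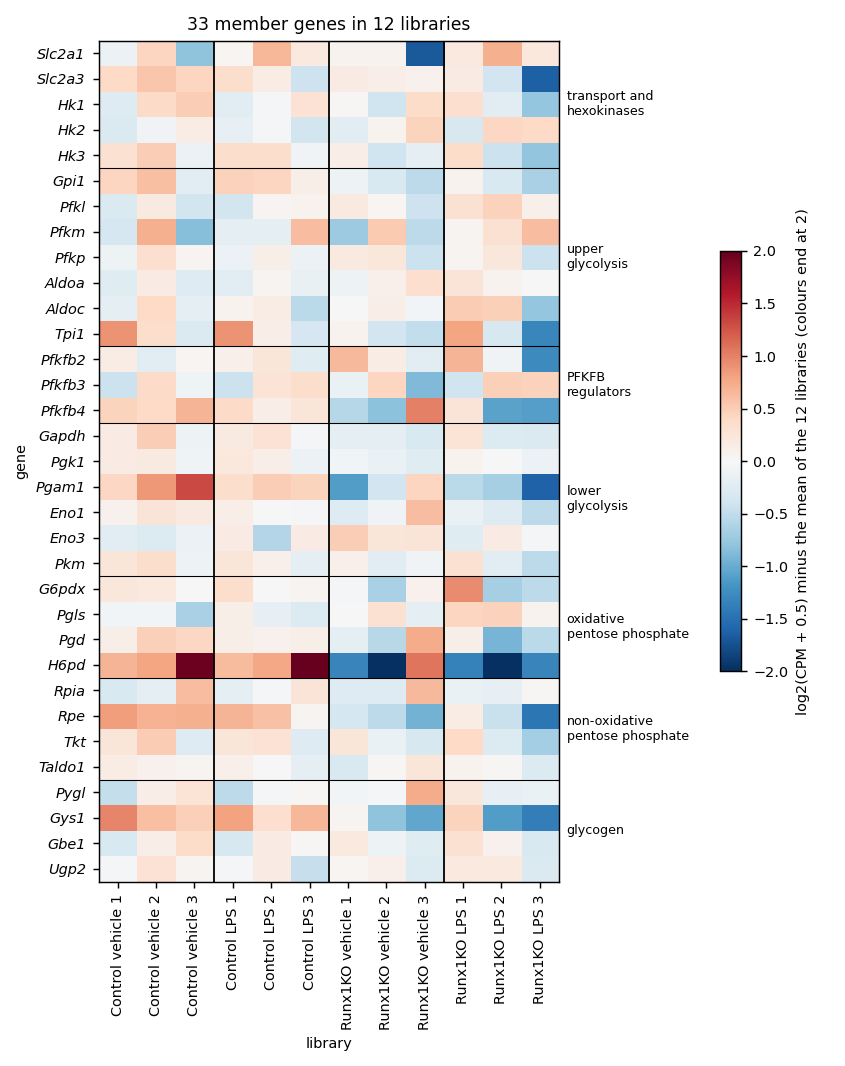
Colours give log2(CPM + 0.5) of each of the 33 members (rows, by role) in each of the 12 libraries (columns) minus the mean of that gene, and the scale ends at 2 on either side, which 3 libraries exceed for H6pd. Rpe, H6pd, Gys1 and Pgam1 are low in most Runx1KO columns, and Runx1KO LPS library 3 is low for many members.

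The second question was what 2 h of LPS did. No member passed edgeR's test in Control (0 of 33, with 0% of all genes called) or in Runx1KO (0 of 33, with 0% of all genes called). At an unadjusted p under 0.05 there were 0 members in either, against 0.604% and 5.23% of all genes, and DESeq2 (0 genes in Control and 1 in Runx1KO) and limma-voom also called 0 members. In Control, 10 members were above 0 and 23 below (69.7% below, against 53.7% of all genes), with a median log2 fold change of −0.092 against −0.020 for all genes. The Control median was −0.021 without vehicle library 2, −0.026 without LPS library 3 and −0.14 without vehicle library 3. In Runx1KO 16 were above and 17 below (47.4% of all genes below), with a median of −0.012 against 0.028. The Runx1KO median was −0.29 without LPS library 1 and 0.15 without LPS library 3, and leaving out vehicle library 1 or 3 gave 0.094 or 0.028. With library totals as the only scaling, the all-gene median shifted by more than 0.1, to −0.14 in Control and −0.28 in Runx1KO, and the members' medians were then −0.20 and −0.31.

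Slc2a1, the transporter that is known to rise with inflammatory activation of myeloid cells, had the largest positive LPS value in Control among the members. Control libraries 1, 2 and 3 had 65.8, 95.9 and 40.6 CPM under vehicle, and 73.7, 114 and 82.0 CPM under LPS. Those of Runx1KO had 75.4, 75.3 and 22.0 CPM under vehicle, and 81.6, 117 and 82.5 CPM under LPS. All 3 Runx1KO LPS libraries were above all 3 vehicle libraries (1 of 33 members, 3.51% of all genes), and in Control the groups overlapped. These gave log2 fold changes of 0.41 in Control (SE 0.44, adjusted p = 1) and 0.70 in Runx1KO (SE 0.44, adjusted p = 0.873). Within library numbers 1, 2 and 3 the LPS difference was 0.16, 0.25 and 1.01 for Control, against 0.11, 0.64 and 1.90 for Runx1KO, higher in 6 of 6. The Runx1KO treatments were not taken as paired by number, so their differences within a number are a description. In both genotypes number 3, whose vehicle libraries had the lowest Tnf, gave the largest difference.

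Slc2a3 went the other way. Its Control LPS libraries were all below its vehicle libraries, as were those of Rpe, Pfkfb4 and Pgd (4 of 33 members, 12.1%, against 2.32% of all genes), and 0 members had all LPS libraries higher (2.84% of all genes). In Runx1KO the 1 member with all LPS libraries lower was Eno3, near 1 to 2 CPM (3.2% of all genes). The gaps in Control were narrow for Rpe, between 63.0 and 62.6 CPM, for Pfkfb4, between 184 and 182 CPM, and for Pgd, between 593 and 592 CPM. That of Slc2a3 was also small, between 1010 and 986 CPM. Slc2a3 had a log2 fold change of −0.40 in Control (SE 0.38, adjusted p = 1) and of −0.58 in Runx1KO (SE 0.38, adjusted p = 0.873). Within library numbers Control differed by −0.035, −0.42 and −0.85 and Runx1KO by −0.0094, −0.53 and −1.72, below 0 in 6 of 6. Pfkfb4 had LPS values of −0.25 (SE 0.48) in Control and −0.61 (SE 0.48) in Runx1KO, where the difference within numbers ran from 0.84 in number 1 to −2.13 in number 3. Pfkfb3, the inducible form, was shown after its values were seen and had LPS values of 0.11 (SE 0.38) and 0.33 (SE 0.38). Over the same 24 other members, LPS values ran from −0.24 (Pgd) to 0.22 (Eno3) in Control and from −0.50 (Pgd) to 0.71 (Pfkm, SE 0.72) in Runx1KO.

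In Runx1KO the size and sign of the LPS difference differed by library number for many members, although same-numbered libraries of these 2 groups did not all deviate together. It was above 0 for 27 of 33 members in number 1, 15 in number 2 and 7 in number 3, with medians of 0.21, −0.0062 and −0.45. In number 3 Eno1 was lower by a difference of −1.15, Pgd by −1.29, Pgam1 by −2.05 and H6pd by −2.53. In number 1 the same 4 genes had differences of 0.12, 0.30, 0.58 and −0.033. Runx1KO LPS library 3 is the one with the lowest TMM factor and 1220 CPM of Adgre1, and Runx1KO vehicle library 3 had the highest member share of counts. Their part in these values was not tested. In Control the corresponding medians were 0.00025, −0.18 and −0.10, with 17, 5 and 14 members above 0.

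**Figure D5:**
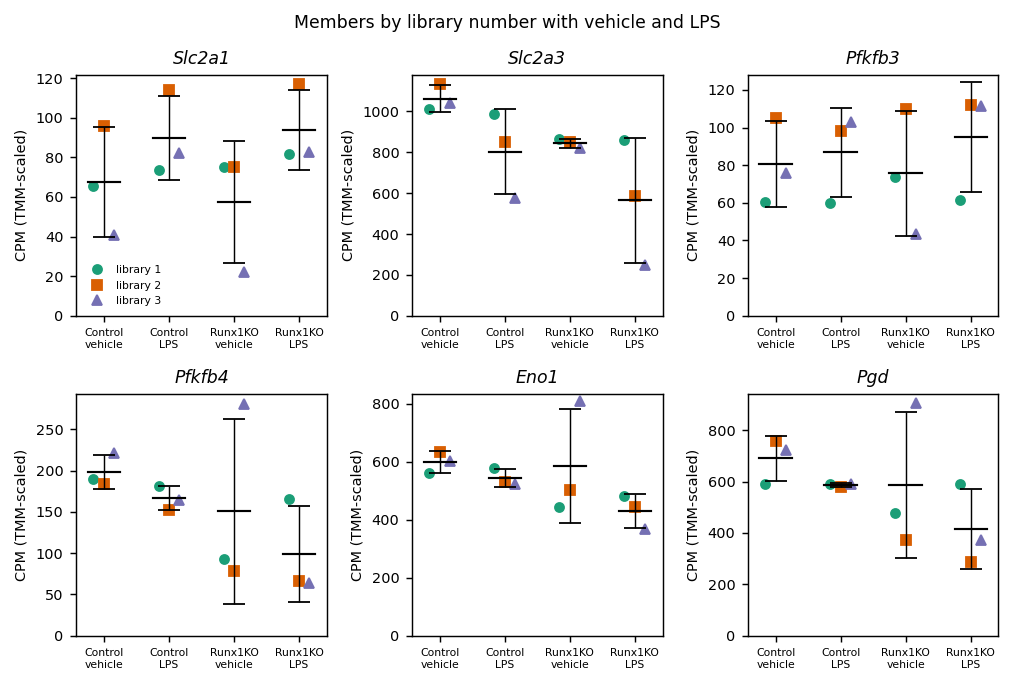
Each point is the CPM (TMM-scaled) of 1 library for Slc2a1, Slc2a3, Pfkfb3, Pfkfb4, Eno1 and Pgd, by group, with marker shape and colour for the library number, and bars are the mean and SD of 3 libraries. Slc2a1 is higher and Slc2a3 lower with LPS in each library number, though in number 1 Slc2a3 is nearly unchanged (log2 differences −0.035 in Control and −0.0094 in Runx1KO). For all 6 genes the LPS difference in Runx1KO is largest in size in number 3.

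The difference between the LPS responses of Runx1KO and Control uses all 12 libraries and shares them with the comparisons above. 0 of 33 members passed edgeR's test (0% of all genes did), and 0 had an unadjusted p under 0.05 (0.596% of all genes). DESeq2 and limma-voom also called 0 members. The value largest in size was that of H6pd, −1.89 (SE 1.14, adjusted p = 1.00), and the smallest in size that of Gpi1, 0.0031 (SE 0.41). For Slc2a1 the difference was 0.29 (SE 0.63), so the larger LPS value in Runx1KO was within the error. Above 0 were 21 of 33 members (all genes 55.1%), and the median over members was 0.076, against 0.048 over all genes. With 1 library left out at a time this median ran from −0.19 (without Runx1KO LPS library 1) to 0.18 (without Runx1KO LPS library 3), and it was −0.034 without Control vehicle library 2. It was −0.087 with library totals as the only scaling.

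The other genes of these pathways, listed by name, gave values on either side of the members. Of the lactate list, 2 of 7 genes tested passed lower in Runx1KO under both treatments, Ldha and its relative Ldhc. Ldha, the lactate dehydrogenase that follows pyruvate kinase, was 827, 975 and 1007 CPM in Control vehicle libraries and 156, 182 and 114 CPM in those of Runx1KO. Under LPS the values were 870, 970.4 and 1132 CPM against 196, 203 and 173 CPM, so the genotypes did not overlap. Its log2 fold changes were −2.64 (adjusted p = 0.00184) and −2.38 (adjusted p = 0.00184). Slc16a3, a lactate exporter, had values of −0.71 and −0.64 and did not pass.

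Among 14 other glycolysis and transport genes tested, 0 passed in any comparison. Adpgk, an ADP-dependent glucokinase, was lower in every Runx1KO library than in any Control library under both treatments, at −0.87 (SE 0.33, adjusted p = 0.399) and −0.88 (SE 0.33, adjusted p = 0.355). Of 17 other glycogen genes 0 passed in any comparison. Of the 6 other pentose phosphate, 7 gluconeogenesis, 12 pyruvate entry and 9 glucose-sensing genes tested, 0 passed in any comparison. Of 17 genes of the HIF pathway and its known targets outside glycolysis, 1 passed: P4ha1, a collagen prolyl hydroxylase subunit, was higher in Runx1KO with LPS by a log2 fold change of 1.22 (adjusted p = 0.0374). With vehicle its value was 1.10 (adjusted p = 0.0538, and 0.0266 with the block). Slc2a6, a lysosomal hexose transporter known to be induced by LPS in macrophages, had LPS values of 1.198 (SE 0.95) in Control and 1.74 (SE 0.97) in Runx1KO, neither of which passed. In bulk RNA, fewer cells that express a gene and less RNA per cell cannot be told apart for any value above.

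Runx1 itself was 36.8, 56.2 and 38.8 CPM in Control vehicle libraries and 60.5, 68.4 and 75.4 CPM in those of Runx1KO. LPS libraries 1, 2 and 3 stood at 32.3, 50.9 and 26.1 CPM for Control, against 58.3, 68.6 and 43.7 CPM for Runx1KO. A count over all exons does not check the deletion, since the sources used here do not give the deleted part.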

How the data were processed

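The values analysed were whole-number read counts per gene for 12 libraries. The authors deposited these counts without normalization, as their unequal totals show. Per the submitters' processing notes, STAR 2.6.0a and featureCounts were used with build mm9. The sources used here do not give the annotation release, the strand setting or the treatment of multi-mapped reads. RNA had column DNase treatment and ultra-low input library preparation, per the labels' protocols.

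Columns were matched to samples by title. Genes were filtered with filterByExpr, scaled by TMM and tested with edgeR 4.0.16 (R 4.3.3), with quasi-likelihood F tests of 5 contrasts from 1 fit of the 4 group means. P-values were adjusted by Benjamini-Hochberg over the 12917 genes tested, with a threshold of 0.05. Differences within a library number used log2 CPM with a prior count of 2. With 3 libraries against 3, the smallest two-sided p of an exact permutation test on 1 gene is 0.1. No pair of replicate libraries agreed within sampling noise (lowest chi-square per degree of freedom 68.3, over genes with at least 20 summed counts). Counting error is small at these depths for genes of high counts only. It is larger for Aldoc, Pfkm, Rpia and Eno3, which had 187, 273, 348 and 413 counts over the 12 libraries. Reads carry no molecular identifiers.

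Same-numbered libraries were checked for pairing by the correlation of their deviations from group means. For numbers 1, 2 and 3 it was 0.67, 0.66 and 0.39 between Control treatments, 0.48, 0.37 and 0.46 between genotypes with vehicle, and 0.57, 0.43 and 0.44 with LPS, all above the limit of 0.1. Between Runx1KO treatments it was 0.31, 0.54 and 0.0058, so these were not taken as paired. The labels do not say what a number stands for, and the pairing comes from these correlations.

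Members named with full values were those at an unadjusted p under 0.05, or among the 5 largest changes whose mean log2 CPM reached 2, in any comparison. From other lists, called genes and at most the 2 of smallest p per comparison were eligible. The members and lists were chosen with earlier results of these data known. Copies were transcripts of at least 95% identity over at least 200 bases in GENCODE M21 (GRCm38), which also gave exon overlap and length. Promoter windows are from RefSeq (GRCm38.p6). Alternatives were DESeq2 1.42.0, limma-voom (limma 3.58.1), other scalings, no filter, a replicate block, fits of 2 groups and 15 fits that left libraries out. The code was tested on simulated data. The values of 1 gene outside the members are not reported here.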

Additional observations from a re-analysis of the deposited data

How the results depend on the processing

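Each comparison was recomputed under 23 settings, except that fits of only 2 groups do not cover the difference between the LPS responses. No member or count reversed its call, and no member call was lost, since 0 members were called in the main analysis. DESeq2 gave 158 genes higher and 228 lower between genotypes with vehicle, with 1 member lower (Rpe), 175 and 226 with LPS, and 1 gene lower for LPS in Runx1KO. The main counts were 45 and 78 with vehicle, 45 and 74 with LPS, and 0. Scaling by library size alone gave a member median of −0.20 for LPS in Control and 50 genes lower between genotypes with vehicle. Without a filter, 1 member was called lower with LPS (H6pd). Fits of only the 2 groups compared gave 13 genes higher and 14 lower with LPS. The replicate block fit of all 12 libraries gave 114 higher and 201 lower with vehicle and 117 higher and 185 lower with LPS. It called 1 member lower in each (Rpe and H6pd) and changed no other member call. In the 2 LPS comparisons and their difference the block called 0 genes. All 12 libraries correlated best with a library of their own number. Leaving out libraries gave 0 to 56 genes higher and 1 to 115 lower with vehicle and 0 to 56 higher and 2 to 80 lower with LPS. Members called lower then ranged from 0 to 1 in each, and the member median with LPS ranged from −0.42 to 0.012. The member calls were Rpe with vehicle without Runx1KO LPS library 3 (adjusted p = 0.0412), and with LPS H6pd without Runx1KO vehicle library 3 (0.0326) and Gys1 without Runx1KO LPS library 1 (0.0331). The cause of these changes was not tested. With 3 libraries per group and a spread that followed the library number, the 95% intervals of single members were wide: that of H6pd with LPS ran from −5.26 to −1.43 and that of Rpe with vehicle from −2.14 to −0.57.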
